A study of Mus musculus with 4 samples.

Results

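The 47 genes described here encode the machinery that copies the genome and supplies its building blocks: the origin recognition and licensing proteins, the replicative helicase, the sliding clamp and its loader, the DNA polymerases and primase, ribonucleotide reductase and the enzymes of dTTP supply, and the proteins that mature Okazaki fragments or coat single-stranded DNA. They were chosen by name from the array's annotation, and all 47 of 47 were measured among the 18194 genes with a probe set of a single gene symbol. Each gene is given by its brightest probe set, by mean log2 intensity. The cells came from kidneys of chimeric mouse embryos on embryonic day 15.5, which formed after wildtype blastocysts had received 3 to 5 embryonic stem cells carrying green fluorescent protein (GFP) and a deletion of Tfrc, the gene of transferrin receptor 1. Sorting gave GFP-positive cells of the donor line, labelled Tfrc-/-, and the wildtype cells, GFP-negative and of the host embryo, with 2 Affymetrix arrays for each. Both groups thus came from chimeric kidneys that had gone through the same digestion with collagenase and trypsin. No array holds donor-derived cells with Tfrc intact, so the Tfrc deletion and whatever else sets the donor cells apart from the host cannot be told apart. The sources used here do not give the number of stem cell clones, kidneys or embryos behind an array.

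DNA replication begins with licensing, in which the origin recognition complex, Cdc6 and Cdt1 load the MCM helicase onto DNA, and continues in S phase, when Cdc45 and the GINS complex join the helicase and the polymerases follow behind it. The deoxynucleotides come from ribonucleotide reductase, whose small subunit (Rrm2, or Rrm2b outside S phase) needs a di-iron centre and a tyrosyl radical, and the primase subunit Prim2, the nuclease-helicase Dna2 and the catalytic subunits of polymerases delta and epsilon carry iron-sulphur clusters. These enzymes are therefore among the known users of iron in a growing tissue, and the embryonic kidney is rich in dividing progenitor, bud and stromal cells.

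All levels below are linear intensities of probe sets. A difference is the mean log2 of the labelled Tfrc-null arrays minus the mean log2 of the wildtype arrays, and it was tested with limma over all 18194 genes with Benjamini-Hochberg adjustment. The Tfrc signal itself was not lower in the cells labelled Tfrc-null: its brightest probe set read 2509 and 3175 there, against 1759 and 2348 on the wildtype arrays (log2 difference 0.47, SE 0.24, limma adjusted p = 0.744). The sources used here do not give the deleted stretch of Tfrc, so the cells are called "labelled Tfrc-null" and every direction rests on that label. Median intensities were 17.5 to 18.8 on the labelled Tfrc-null arrays and 17.9 to 19.3 on the wildtype arrays. A hybridization control and the 3' to 5' ratio of beta-actin followed the replicate number and not the group: that ratio was 5.89 and 5.51 on the labelled Tfrc-null and wildtype arrays numbered 1, and 7.21 and 6.49 on those numbered 2. Differences between arrays of the same number are therefore given for the set and for the members with the lowest p.

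As a set, the replication genes stood slightly higher in the cells labelled Tfrc-null, and no member passed the test. Of the 47 members, 42 had a higher mean and 5 (Mcm2, Mcm6, Prim2, Rrm2 and Rrm2b) a lower one, though Orc2 and Mcm4 stood at 0.00 and were lower under quantile normalization, and Rrm2 was higher by its other probe sets. The largest absolute difference, that of the polymerase delta subunit Pold2, was 0.88 on the log2 scale. The median log2 difference was 0.20, against 0.04 over all genes. With limma, 0 of 47 members reached an adjusted p of 0.05, as did 0 (0%) of all genes. An unadjusted p under 0.05 was seen for 4 members (Pold2, Gins2, Rfc4 and Gins4), all higher, where 4.03% of all genes met it in that direction and 8.02% in either.

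The groups did not overlap in 18 of the 47 members. In 15 of them (31.9%) both labelled Tfrc-null arrays lay above both wildtype arrays, where 20.6% of all genes and 21.4% of genes above the array's control level did. In 3 of them (6.38%) both lay below, where 14.3% of all genes and 15.3% of genes above the control level did. All 47 members lay above the control level on all 4 arrays, so none of these separations rests on signal at or below that level. The share of higher members depended on 1 array. It was 89.4% with all 4 arrays (57.5% of all genes and 57.8% of those above the control level), and 55.3% (26 of 47) without wildtype replicate 2, where 54.2% of all genes had a higher mean and the members' median was 0.12. The share stayed between 74.5% and 83.0% when any other array was left out. Between arrays numbered 1 the median difference of the members was 0.16, against 0.04 over all genes. There 31 of 47 members were higher in the cells labelled Tfrc-null, where 54.7% of all genes were. Between arrays numbered 2 the members' median was 0.27, against 0.05 over all genes, and 41 of 47 were higher, where 57.0% of all genes were. The difference had the same sign between arrays of both numbers for 32 members, higher for 29 and lower for 3.

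**Figure D1:**
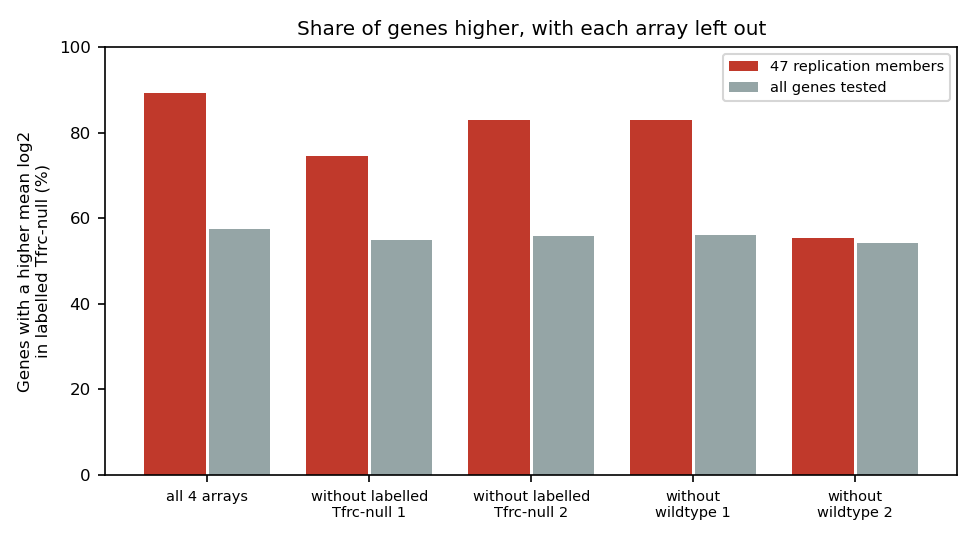
Share of genes whose mean log2 was higher in labelled Tfrc-null than in wildtype cells, in percent, for the 47 replication members and for all 18194 genes, with all 4 arrays and with each array left out. The members stand at 89.4% with all arrays and at 55.3% without wildtype replicate 2, beside 54.2% of all genes.

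The precision was modest. Standard errors of the members ran from 0.18 to 0.39 on the log2 scale, and the 95% interval of the difference stayed inside a 2-fold change in both directions for 28 of the 47 and reached past it for 19. The median signed difference of the members between array 1 and array 2 of a group was 0.06 for labelled Tfrc-null and 0.10 for wildtype, where that between the groups was 0.20. Signed differences cancel across genes. Without the sign, the median difference between the 2 arrays of a group was larger, 0.27 for labelled Tfrc-null and 0.38 for wildtype.

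Markers of several of the kidney's cell types stood apart between the groups as well, though 0 of all markers listed passed the test. In sorted pools fewer cells of a type and less RNA per cell cannot be told apart. Summed intensities of the 10 stromal markers were 14276 to 16344 on the labelled Tfrc-null arrays, against 9065 to 12927 on the wildtype arrays. All 10 were higher by mean, and 8 without overlap (80.0%, with 20.6% of all genes). The ureteric bud markers summed to 2828 to 3571 on labelled Tfrc-null, against 7131 to 7642 on wildtype, with 10 of 10 lower by mean. Of the 10, 7 were lower without overlap (70.0%, with 14.3% of all genes) and 3, Wnt11, Krt8 and Aqp2, overlapped. Endothelial markers summed to 3017 to 3728 on labelled Tfrc-null, against 5162 to 6088 on wildtype, also with 10 of 10 lower by mean. Of these, 6 were lower without overlap (60.0%) and 4 overlapped. Cap mesenchyme holds the nephron progenitors, and the erythroid and leukocyte lists mark blood cells. Cap mesenchyme markers summed to 2531 to 2610 on labelled Tfrc-null, against 2990 to 3902 on wildtype, with 7 of 8 lower by mean. Of the 8, 2 were lower without overlap (25.0%, with 14.3% of all genes) and 6 overlapped. Their median log2 difference was 0.03 between arrays numbered 1 and -0.66 between those numbered 2. Erythroid markers summed to 273 to 321 on labelled Tfrc-null, against 1661 to 4505 on wildtype, with 13 of 14 lower by mean. Most of the wildtype sums came from Hbb-y, Alas2 and Slc4a1. Of the 14, 10 were lower without overlap (71.4%, with 14.3% of all genes), among them Epb42 and Rhag, and 4 overlapped. Hba-a1, Epb42 and Rhag did not exceed the control level on any of the 4 arrays. Leukocyte markers summed to 4473 to 4773 on labelled Tfrc-null, against 8469 to 11612 on wildtype, with 5 of 10 lower and 5 higher. S100a8 and S100a9, genes of neutrophils, singled out after their values were seen, carry this gap. The other 8 markers summed to 4380.2 and 4258 on labelled Tfrc-null, against 4188 and 4395 on wildtype. Within this even sum, 5 markers were higher and 3 lower by mean. Without overlap, Pf4 (log2 difference 1.06), Cd14 (0.60) and Csf1r (0.22) were higher, and Ptprc (-0.73), Lyz2 (-0.72) and Ctss (-0.64) lower. Defining kidney markers such as Wt1, Six2, Ret and Foxd1 lay above the control level on all 4 arrays. The part of this cell mixture in the replication values was not tested.

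**Figure D2:**
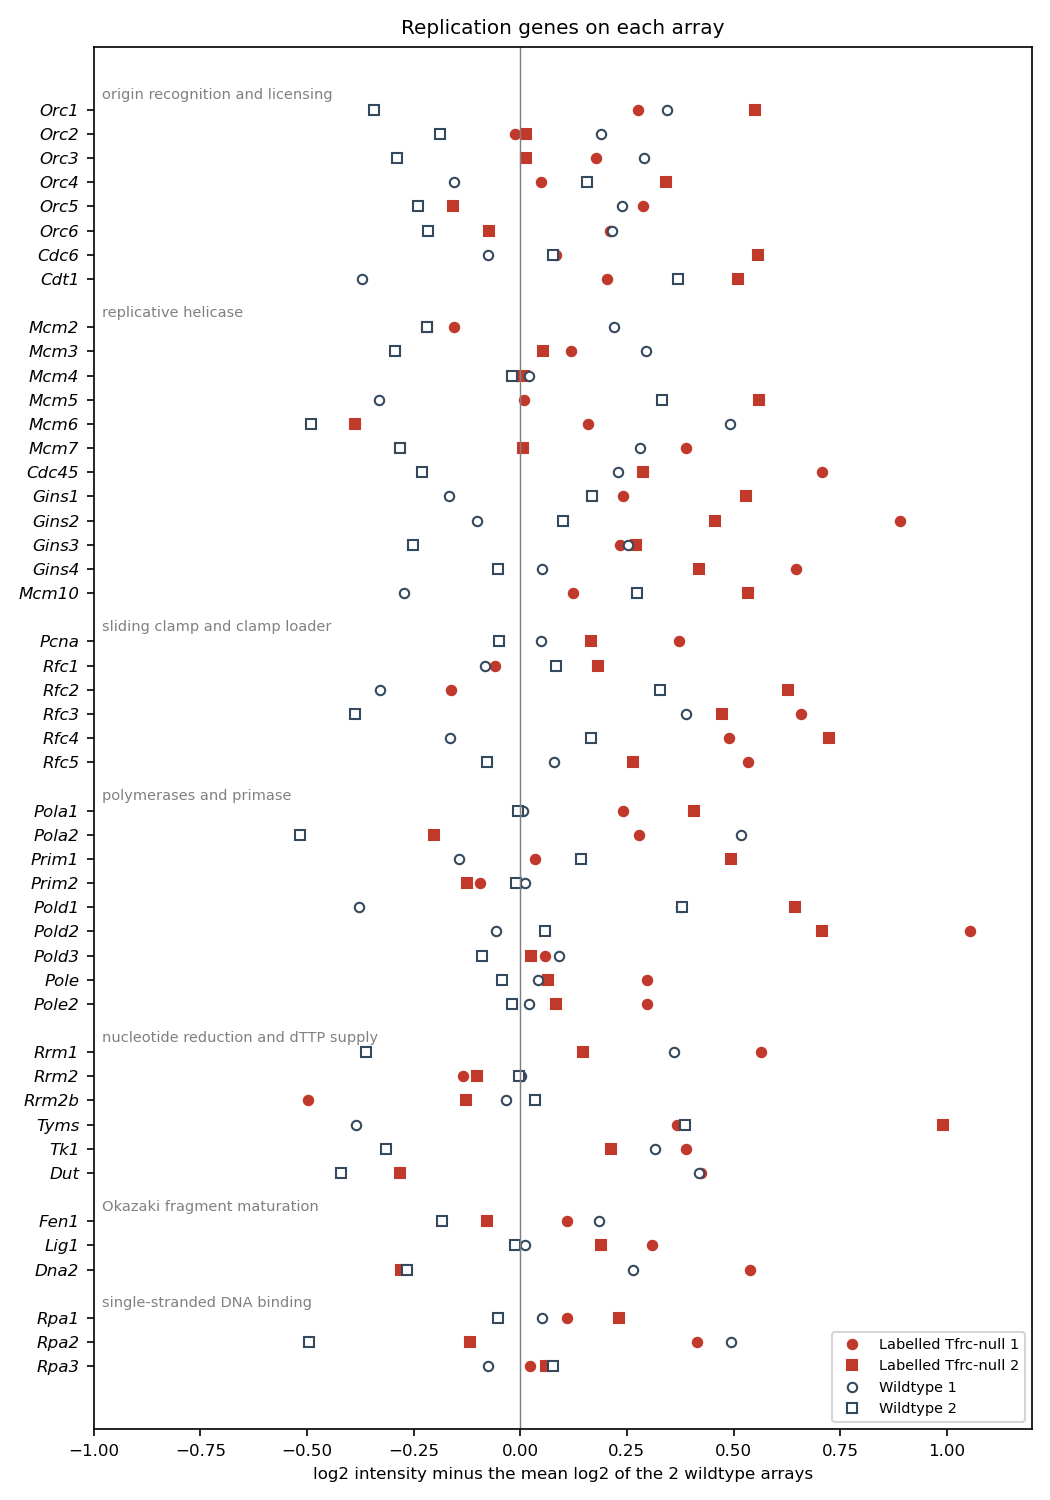
Each of the 47 replication genes on each array, as log2 intensity minus the mean log2 of the 2 wildtype arrays, ordered by role. Filled symbols are the labelled Tfrc-null arrays and open symbols the wildtype arrays, circles those numbered 1 and squares those numbered 2. The filled symbols of Pold2, Gins2, Gins4 and Rfc4 lie right of both open symbols, and the symbols of most MCM and ORC genes are interleaved.

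The promoters of the replication genes are shown because many members are known targets of E2F, the transcription factor family that opens S phase. RefSeq promoter windows on GRCm38.p6, from 250 bases before to 50 bases after the start, were held for 39 of the 47 members. They were searched on both strands for the E2F words TTTGGCGC, TTTCCCGC, TTTCGCGC and TTTGCCGC, for CCAAT and for TTTGAA, the core of the cell cycle genes homology region. An E2F word was found in 15 of 39 members (38.5%), against 3.81% of 14453 tested genes with a window, and in 1 of 23 mitotic genes (4.35%). A CCAAT word was found in 59.0% of members and 42.0% of tested genes, and TTTGAA in 12.8% of members, 65.2% of mitotic genes and 15.7% of tested genes. A match is a string of letters and shows no binding. The 250 bases before the start are printed 5′ to 3′ on the gene's strand for 3 MCM ring subunits and Rfc3, which hold E2F words, and for Rrm2 and Pold2, the members with the most discordant probe sets and the largest difference. Capitals mark E2F words and CCAAT words on either strand, where overlapping E2F words run together.
Mcm5, chr8:75109259-75109508, plus strand: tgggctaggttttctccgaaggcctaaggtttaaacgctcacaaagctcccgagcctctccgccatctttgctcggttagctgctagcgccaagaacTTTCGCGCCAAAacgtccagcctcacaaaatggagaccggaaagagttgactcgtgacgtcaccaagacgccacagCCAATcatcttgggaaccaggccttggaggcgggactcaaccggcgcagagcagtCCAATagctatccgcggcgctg
Mcm6, chr1:128359706-128359955, minus strand: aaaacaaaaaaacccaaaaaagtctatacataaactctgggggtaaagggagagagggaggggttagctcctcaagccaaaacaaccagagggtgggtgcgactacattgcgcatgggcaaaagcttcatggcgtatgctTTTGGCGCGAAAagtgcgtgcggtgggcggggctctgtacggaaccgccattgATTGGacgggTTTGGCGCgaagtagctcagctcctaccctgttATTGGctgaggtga
Mcm7, chr5:138171884-138172133, minus strand: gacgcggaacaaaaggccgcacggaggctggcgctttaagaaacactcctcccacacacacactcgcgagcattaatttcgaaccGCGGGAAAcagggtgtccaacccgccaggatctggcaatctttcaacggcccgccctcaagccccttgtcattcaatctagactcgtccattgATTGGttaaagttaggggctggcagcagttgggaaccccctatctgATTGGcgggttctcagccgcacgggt
Rfc3, chr5:151651209-151651458, minus strand: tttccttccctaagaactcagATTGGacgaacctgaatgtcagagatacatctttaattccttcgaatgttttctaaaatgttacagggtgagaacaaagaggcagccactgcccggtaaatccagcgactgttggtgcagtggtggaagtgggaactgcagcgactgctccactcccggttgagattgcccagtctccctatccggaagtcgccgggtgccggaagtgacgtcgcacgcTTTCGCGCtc
Rrm2, chr12:24708004-24708253, plus strand: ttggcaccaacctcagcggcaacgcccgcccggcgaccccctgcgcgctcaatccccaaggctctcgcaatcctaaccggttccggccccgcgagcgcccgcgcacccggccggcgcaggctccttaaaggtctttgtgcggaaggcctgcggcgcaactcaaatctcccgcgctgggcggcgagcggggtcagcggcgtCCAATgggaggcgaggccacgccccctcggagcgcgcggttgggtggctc
Pold2, chr11:5878257-5878506, minus strand: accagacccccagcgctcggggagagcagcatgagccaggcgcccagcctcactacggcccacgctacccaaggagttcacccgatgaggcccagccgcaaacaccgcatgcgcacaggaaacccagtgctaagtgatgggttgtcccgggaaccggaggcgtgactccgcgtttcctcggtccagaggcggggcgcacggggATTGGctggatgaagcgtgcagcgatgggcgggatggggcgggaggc
In Mcm5 the words TTTCGCGC and, on the other strand, TTTGGCGC overlap between 153 and 142 bases before the start, and in Mcm6 TTTGGCGC and TTTCGCGC overlap likewise between 110 and 99 bases before it. Mcm6 holds another TTTGGCGC at 47 to 40 bases, Mcm7 a TTTCCCGC on the other strand at 165 to 158 bases, and Rfc3 a TTTCGCGC at 10 to 3 bases. The Rrm2 and Pold2 stretches hold 1 CCAAT word each and no E2F word in these letters. Mcm5, Mcm6 and Mcm7 overlapped between the groups, and Rfc3 was higher without overlap, so genes with these words stood on both sides of that line.

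Among the licensing genes, all 8 had a higher mean with all 4 arrays, except Orc2 under quantile normalization, where 57.5% of all genes did in the main setting. Cdc6 was higher without overlap, 1 of 8 (12.5%, with 20.6% of all genes). Cdt1, Orc2, Orc3, Orc5 and Orc6 turned direction when 1 array was left out. Without wildtype replicate 2, Orc2, Orc3 and Orc6 were lower without overlap, where 31.6% of all genes were. The 6 subunits of the origin recognition complex, which marks origins and loads the helicase, had log2 differences of 0.41 for Orc1, 0.00 for Orc2, 0.10 for Orc3, 0.19 for Orc4, 0.06 for Orc5 and 0.07 for Orc6, and the groups overlapped in each. Orc1, the subunit whose level oscillates in the cell cycle, read 32.7 and 39.6 on the labelled Tfrc-null arrays, against 34.3 and 21.3 on the wildtype arrays (adjusted p = 0.858 with limma). Orc4 read 312 and 383 on labelled Tfrc-null, against 271 and 337 on wildtype. In both genes an array of each group lay between the arrays of the other. Cdc6, the ATPase that works with ORC in loading, read 159.5 and 222 on labelled Tfrc-null, against 143 and 159 on wildtype, and its lower labelled Tfrc-null array exceeded the higher wildtype array by less than 1 in intensity (log2 difference 0.32, SE 0.23). Cdt1, which brings the MCM hexamer to the origin, read 1131 and 1399 on labelled Tfrc-null, against 760.0 and 1269.6 on wildtype (log2 difference 0.36, SE 0.30). The wildtype arrays of Cdt1 stood further apart than the group means did.

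The 6 core helicase subunits, Mcm2 to Mcm7, which form the ring that unwinds DNA, had a median log2 difference of 0.04 and no subunit without overlap, beside medians of 0.08 for the origin recognition complex, 0.40 for the clamp loader and 0.46 for GINS. Mcm2 read 632 and 604 on the labelled Tfrc-null arrays, against 819 and 604 on the wildtype arrays (log2 difference -0.19). Mcm3 read 757 and 724 on labelled Tfrc-null, against 855 and 569 on wildtype (log2 difference 0.09). Mcm4 read 2285 and 2311 on labelled Tfrc-null, against 2329.8 and 2267 on wildtype. Mcm4 was even, with a log2 difference of 0.00 and a 95% interval of -0.45 to 0.45. Mcm5 read 972 and 1424 on labelled Tfrc-null, against 768 and 1215 on wildtype, with a log2 difference of 0.28 (SE 0.32). Mcm6 read 969 and 664 on labelled Tfrc-null, against 1220.4 and 617 on wildtype (log2 difference -0.11). Mcm7 read 1963 and 1508 on labelled Tfrc-null, against 1823 and 1234 on wildtype (log2 difference 0.20). In Mcm5, Mcm6 and Mcm7 the arrays split by replicate number more than by group, and the log2 differences of Mcm6 were -0.33 and 0.10 between arrays numbered 1 and numbered 2. The summed intensity of the 6 subunits was 7577 and 7234 on the labelled Tfrc-null arrays, against 7815 and 6507 on the wildtype arrays. These readings are of the brightest probe sets. Among further probe sets, the second of Mcm5 differed by 0.56 with overlap. Higher without overlap were the third of Mcm5 (1.12) and of Mcm7 (0.13), and lower the third of Mcm3 (-0.14) and the second of Mcm6 (-0.09). With probe sets averaged, Mcm5 was higher without overlap.

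The factors that turn the loaded ring into an active helicase differed more. Of Cdc45, the 4 GINS subunits and Mcm10, all 6 had a higher mean in the cells labelled Tfrc-null, and 4 were without overlap. Over all genes, 57.5% had a higher mean and 20.6% were higher without overlap. Gins2, a subunit of the GINS complex that bridges the helicase and polymerase epsilon, read 311 and 229.8 on the labelled Tfrc-null arrays, against 156 and 179.7 on the wildtype arrays. Its mean was 1.59-fold higher, a log2 difference of 0.67 (SE 0.23, limma adjusted p = 0.538), and it was 0.99 and 0.35 between arrays numbered 1 and numbered 2. A second probe set of Gins2 differed by 0.60. Gins4 read 711 and 607 on labelled Tfrc-null, against 471 and 438 on wildtype, a log2 difference of 0.53 (SE 0.19, adjusted p = 0.57), and 0.59 and 0.47 within the numbers. Gins1 read 632 and 771 on labelled Tfrc-null, against 476 and 599.8 on wildtype (log2 difference 0.39), and its second, dimmer probe set differed by 0.00. Both labelled Tfrc-null arrays stood above both wildtype arrays in these 3 subunits, whereas Gins3 (log2 difference 0.25) overlapped. Cdc45, the remaining partner of the active helicase, read 177 and 132 on labelled Tfrc-null, against 127 and 92.5 on wildtype, with no overlap and log2 differences of 0.48 and 0.52 between arrays numbered 1 and numbered 2. The second, dimmer probe set of Cdc45 differed by 0.01 with overlap. Mcm10, which helps to start unwinding, overlapped at a log2 difference of 0.33. The difference between GINS and the MCM ring was not tested.

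The sliding clamp Pcna, the ring that holds polymerases on DNA, read 3078 and 2670.3 on the labelled Tfrc-null arrays, against 2461 and 2300.1 on the wildtype arrays, 1.21-fold higher and without overlap (log2 difference 0.27, SE 0.19, adjusted p = 0.864). All 5 subunits of replication factor C, which opens the clamp and loads it, had a higher mean, where 57.5% of all genes did. Without overlap, 3 were higher (60.0%, with 20.6% of all genes). Rfc4 read 1138 and 1339 on labelled Tfrc-null, against 724 and 910.0 on wildtype, a log2 difference of 0.61 (SE 0.22, adjusted p = 0.555), and 0.65 and 0.56 between arrays numbered 1 and numbered 2. Its second probe set differed by 0.36, also without overlap. Rfc3 read 258 and 227 on labelled Tfrc-null, against 214 and 125 on wildtype (log2 difference 0.57). Rfc5 read 399 and 331 on labelled Tfrc-null, against 290.4 and 261 on wildtype (log2 difference 0.40). For Rfc3 the labelled Tfrc-null arrays lay close together and wildtype replicate 2 was far below the other arrays, and its log2 differences were 0.27 and 0.86 between arrays numbered 1 and numbered 2. Rfc1, the large subunit, and Rfc2 overlapped, at 0.06 and 0.23.

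Of the 9 polymerase and primase genes, 8 had a higher mean (88.9%, with 57.5% of all genes). Pold2, an accessory subunit of polymerase delta, had the largest absolute log2 difference of the 47 members. It read 244 and 192 on the labelled Tfrc-null arrays, against 113 and 122 on the wildtype arrays, means of 218 ± 36.9 against 117 ± 6.68 (SD, n = 2 each). The mean was 1.84-fold higher, 0.88 on the log2 scale (SE 0.21, 95% interval 0.35 to 1.41, limma adjusted p = 0.34), and it was 1.11 and 0.65 between arrays numbered 1 and numbered 2. Pold2 had a single probe set and so no second reading here. Pold1, the catalytic subunit, read 1616 and 1944 on labelled Tfrc-null, against 956 and 1618 on wildtype, with overlap by a narrow margin (log2 difference 0.51, SE 0.30), and a second probe set of Pold1 differed by 0.73 without overlap. Pold3 differed by 0.04, and the differences between the delta subunits were not tested.

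Pole, the catalytic subunit of polymerase epsilon on the leading strand, read 379.5 and 323 on labelled Tfrc-null, against 318 and 299.9 on wildtype, without overlap but with a log2 difference of only 0.18 (SE 0.19). Its partner Pole2 differed by 0.19, also without overlap. Of polymerase alpha, which extends the RNA primers, Pola1 read 217 and 244 on labelled Tfrc-null, against 185 and 183 on wildtype without overlap (log2 difference 0.32, SE 0.18), and Pola2 overlapped at 0.04. The primase catalytic subunit Prim1 read 1712 and 2356 on labelled Tfrc-null, against 1515 and 1846 on wildtype, with overlap (log2 difference 0.26). Its partner Prim2, which holds the iron-sulphur cluster, read 254 and 249 on labelled Tfrc-null, against 274 and 269.6 on wildtype. Prim2 was lower without overlap by 1.08-fold (log2 difference -0.11, SE 0.18, adjusted p = 0.983).

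**Figure D3:**
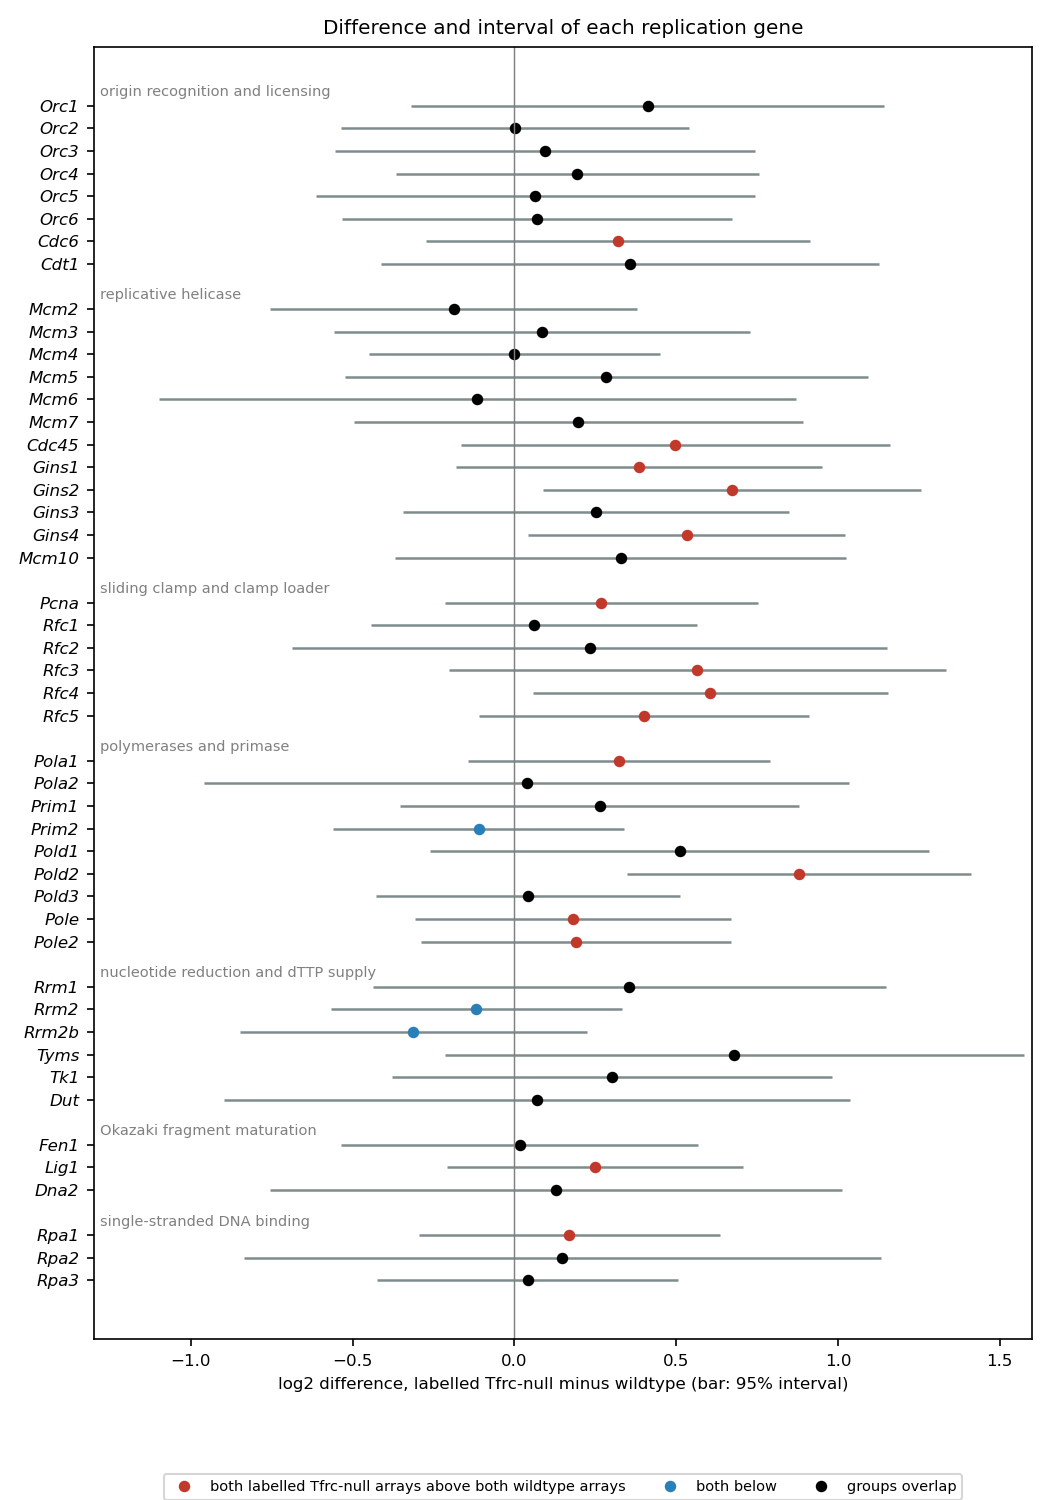
Log2 difference of each of the 47 replication genes, labelled Tfrc-null minus wildtype, with the 95% interval of limma's fit as a bar, ordered by role. Red points are genes whose 2 labelled Tfrc-null arrays both exceeded both wildtype arrays, blue points the opposite, black points genes whose groups overlap. The intervals of Pold2, Gins2, Rfc4 and Gins4 do not reach 0 before adjustment, and Prim2, Rrm2 and Rrm2b are the 3 blue points.

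Ribonucleotide reductase gave readings that differed between its subunits and between probe sets of 1 subunit. Rrm1, the large catalytic subunit, read 526 and 393 on the labelled Tfrc-null arrays, against 456 and 277 on the wildtype arrays (log2 difference 0.36, SE 0.31), and the groups overlapped. Rrm2, the small subunit of S phase, read 4435 and 4532 on labelled Tfrc-null, against 4875 and 4858 on wildtype by its brightest probe set, slightly lower and without overlap (log2 difference -0.12, SE 0.18, 95% interval -0.57 to 0.33, adjusted p = 0.977). Its other probe sets went the opposite way. The brightest is of a probe set type that can be shared between transcripts, and the second is not. The second read 1124 and 868 on labelled Tfrc-null, against 399 and 374 on wildtype, 2.56-fold higher in the cells labelled Tfrc-null and without overlap (log2 difference 1.35, SE 0.22, limma adjusted p = 0.239 over all 34958 single-symbol probe sets). The third read 103 and 81.3 on labelled Tfrc-null, against 75.7 and 52.2 on wildtype, with a log2 difference of 0.54. No single direction can therefore be given for Rrm2, and no other member had probe sets without overlap in opposite directions.

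Rrm2b, the p53-inducible small subunit that serves resting cells and DNA repair, had the lowest difference of the set. It read 374 and 484 on the labelled Tfrc-null arrays, against 516 and 541 on the wildtype arrays, 1.24-fold lower without overlap (log2 difference -0.31, SE 0.21, adjusted p = 0.844). Its 3 further probe sets did not lie above the control level on all 4 arrays. Tyms, the thymidylate synthase, read 82.8 and 128 on labelled Tfrc-null, against 49.1 and 83.9 on wildtype, a log2 difference of 0.68 (SE 0.35) with overlap by a narrow margin. A second Tyms probe set, close to the control level, differed by -0.17. The salvage enzyme Tk1, thymidine kinase, read 513 and 455 on labelled Tfrc-null, against 488 and 315 on wildtype, with overlap (log2 difference 0.30). Dut, the dUTPase that keeps uracil out of DNA, differed by 0.07.

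**Figure D4:**
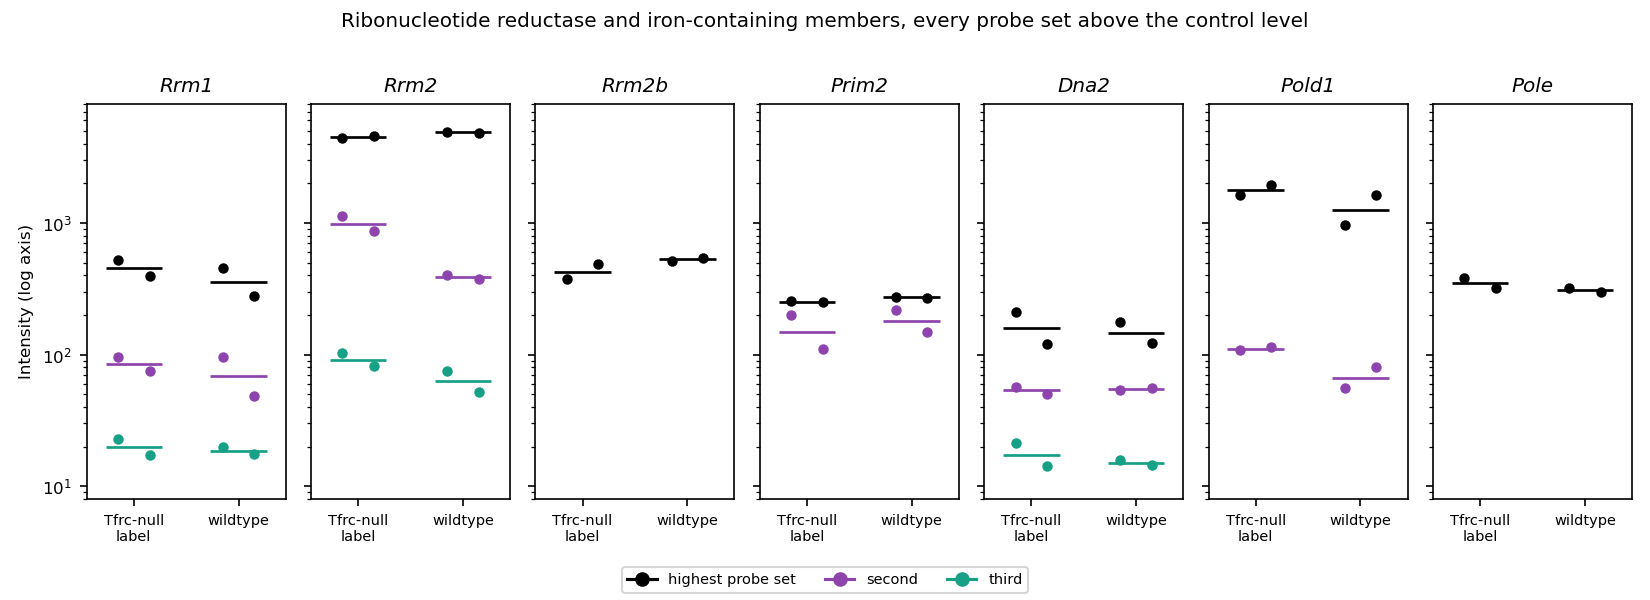
Intensity on a log axis of ribonucleotide reductase (Rrm1, Rrm2, Rrm2b) and of the other iron-containing members (Prim2, Dna2, Pold1, Pole), for every probe set above the control level on all 4 arrays. In each panel the 2 labelled Tfrc-null arrays are on the left and the 2 wildtype arrays on the right, points are arrays and lines the mean of the log2 values. The brightest Rrm2 probe set is slightly lower in the cells labelled Tfrc-null, and its other probe sets are higher.

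The members known to hold iron did not share a direction. Of the 6, Rrm2 (by its brightest probe set), Rrm2b and Prim2 were lower without overlap, Pole was higher without overlap, and Pold1 and Dna2 overlapped. Their median log2 difference was 0.01, and that of the other 41 members 0.25. Over all genes, 20.6% were higher and 14.3% lower without overlap. The 3 members that were lower without overlap are all in this group of 6, and the other 41 held 14 that were higher and 0 that were lower without overlap. The difference between the groups of members was not tested, and the Rrm2 reading depends on the probe set. Both medians use the brightest probe sets. Of these 3, Rrm2b alone stayed lower without overlap when arrays were centred on their medians. With probe sets averaged, Rrm2 was higher without overlap and Prim2 overlapped, while Pold3, outside this group of 6, was lower without overlap. Without probe sets of the types shared between transcripts, Rrm2 was higher without overlap. Mcm3, also outside the group, was then lower without overlap. Rrm2b was lower without overlap in both settings. Without wildtype replicate 2, 14 of 47 members were lower without overlap, where 31.6% of all genes were, and 11 of the 14 were not among the iron-containing members.

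Okazaki fragments, the short pieces of the lagging strand, are trimmed by Fen1 and Dna2 and joined by Lig1. The flap nuclease Fen1 read 4684 and 4111 on labelled Tfrc-null, against 4930.4 and 3819.8 on wildtype, an even signal (log2 difference 0.02), and its second, dimmer probe set differed by 0.53. DNA ligase Lig1 read 511 and 470.4 on labelled Tfrc-null, against 416 and 409 on wildtype, higher without overlap (log2 difference 0.25, SE 0.18). Dna2 read 212 and 120.2 on labelled Tfrc-null, against 175 and 121 on wildtype (log2 difference 0.13), and its arrays split by replicate number in both groups. Of the replication protein A subunits, which coat single-stranded DNA, Rpa1 read 1663 and 1811 on labelled Tfrc-null, against 1598 and 1489 on wildtype without overlap (log2 difference 0.17, SE 0.18). Rpa2 read 382 and 264 on labelled Tfrc-null, against 403 and 203 on wildtype. Rpa3 read 483 and 496 on labelled Tfrc-null, against 451 and 501 on wildtype. Both overlapped, with log2 differences of 0.15 and 0.04.

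Further probe sets gave a second reading for many members. Of 61 further probe sets, 48 in 32 genes lay above the control level on all 4 arrays. Their median log2 difference was 0.14, 36 had a higher mean and 12 a lower one, and 35 had the sign of the brightest probe set of their gene. A total of 14 of the 48 were higher and 4 lower without overlap. By brightest probe set, 57.8% of genes above the control level had a higher mean. Of those genes, 21.4% were higher and 15.3% lower without overlap. Shares over all further probe sets of the array are not given here. Only 6 differed from the brightest probe set by at least 0.5: the 2 of Rrm2, and 1 each of Orc2, Mcm5, Fen1 and Tyms.

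Other genes of the pathway had a smaller median difference. Of 105 listed, 100 had a single-symbol probe set among those used here, 0 passed the test, and 71 had a higher mean. The median log2 difference was 0.13. Higher without overlap were 25 (25.0%, with 20.6% of all genes) and lower 7 (7%, with 14.3% of all genes). Without wildtype replicate 2 the median was 0.00, and without labelled Tfrc-null replicate 1 it was 0.01.

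The counts without overlap that follow are to be read against those shares of all genes, 20.6% higher and 14.3% lower. Of 13 genes that control origin licensing and firing, 3 were higher (23.1%) and 0 lower without overlap. Cyclin E1 (Ccne1), which drives entry into S phase, had a log2 difference of 0.35, the helicase Recql4 0.23, the phosphatase Cdc25a 0.20 and geminin (Gmnn), the inhibitor of Cdt1, 0.23. Of 17 genes of fork protection and the S-phase checkpoint, 6 were higher (35.3%) and 0 lower without overlap. Dscc1 and Chtf18, subunits of the alternative clamp loader that acts in sister chromatid cohesion, differed by 0.63 (SE 0.20, limma adjusted p = 0.505) and 0.74 (SE 0.36). Dscc1 read 236 and 194 on labelled Tfrc-null, against 143 and 134 on wildtype. The checkpoint mediator Clspn and the kinase Chek1 differed by 0.40 and 0.32.

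Of 11 further polymerase subunits and flap or RNA-processing genes, 6 were higher (54.5%) and 0 lower without overlap, among them the ribonuclease H genes Rnaseh2a (0.48) and Rnaseh1 (0.38) and the polymerase epsilon subunits Pole4 (0.28) and Pole3 (0.28). Of 9 genes of chromatin assembly behind the fork, 3 were higher (33.3%) and 0 lower without overlap. Log2 differences were 0.47 for the histone chaperone subunit Chaf1b, 0.37 for Asf1b, 0.36 for the FACT subunit Supt16 and -0.23 for the maintenance methyltransferase Dnmt1. Of 22 other enzymes of nucleotide supply, 6 were higher (27.3%) and 1 lower (4.55%) without overlap. The mitochondrial thymidine kinase Tk2 read 19.6 and 21.1 on labelled Tfrc-null, against 15.0 and 11.7 on wildtype (log2 difference 0.62, SE 0.21), and Nme1, Shmt1 and Dhodh, which act in nucleotide phosphorylation, folate metabolism and pyrimidine synthesis, differed by 0.38, 0.36 and 0.32.

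The E2F list, of the regulators above the machinery, held a smaller share of higher genes without overlap than all genes did. Its share of lower ones was similar to that of all genes. Of its 16 E2F and pocket protein genes, 1 was higher without overlap (6.25%), the repressor E2f7 (514 and 491 on labelled Tfrc-null, against 371 and 310.5 on wildtype; log2 difference 0.57, SE 0.20), and 2 were lower (12.5%), the activator E2f2 (-0.39) and the retinoblastoma gene Rb1 (-0.31). Rbl2, a pocket protein of resting cells, differed by 0.40 with overlap. Of 12 D cyclins, their kinases and CDK inhibitors, 0 were higher and 4 (33.3%) lower without overlap, with 20.6% and 14.3% of all genes. The inhibitor Cdkn1c read 206 and 100.2 on labelled Tfrc-null, against 659.7 and 525 on wildtype, 4.09-fold lower (log2 difference -2.03, SE 0.38, limma adjusted p = 0.242). The inhibitor Cdkn1b, which holds cells out of the cycle, read 605 and 704 on labelled Tfrc-null, against 775 and 1040.3 on wildtype (log2 difference -0.46, SE 0.23). The G1 kinase Cdk6 and cyclin D1 (Ccnd1) differed by -0.42 and -0.21.

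Mitotic genes, which are expressed later in the cycle of the same dividing cells, had a median log2 difference of 0.16, beside 0.20 for the replication members, and of 0.06 when the probe sets of a gene were averaged. Of 26 measured, 24 had a higher mean (92.3%, with 57.5% of all genes). Without overlap, 11 were higher (42.3%, with 20.6% of all genes) and 2 lower (7.69%, with 14.3% of all genes). Leaving out wildtype replicate 2 gave a median of 0.03, and leaving out wildtype replicate 1 gave 0.33. The kinases Nek2 and Ttk differed by 0.51 (SE 0.19) and 0.63 (SE 0.25), and the kinetochore partners Ndc80 and Nuf2 by 0.39 and -0.42. No mitotic gene passed the test.

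**Figure D5:**
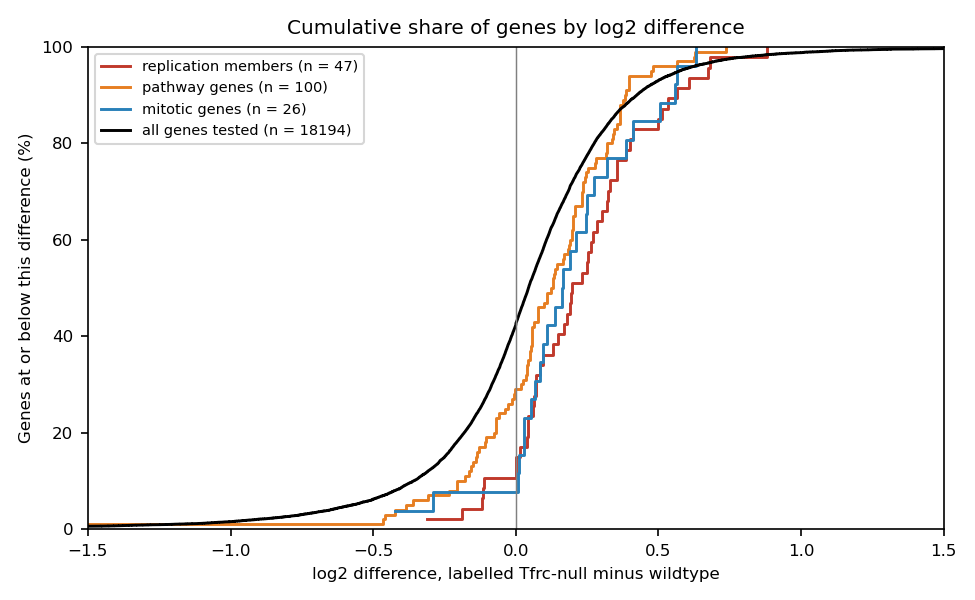
Cumulative share of genes, in percent, by log2 difference of labelled Tfrc-null minus wildtype, for the 47 replication members, 100 other genes of the pathway, 26 mitotic genes and all 18194 genes tested, with the axis limited to differences of 1.5 in either direction. The curves of the members and the mitotic genes lie right of the curve of all genes, with medians of 0.20 and 0.16 against 0.04.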

How the data were processed

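Labelled RNA from sorted kidney cells, 50.0 ng a sample, was hybridised to 4 Affymetrix Mouse Genome 430 arrays. The deposited values are linear intensities per probe set, which the authors made with RMA, per the submitters' processing notes; the sources used here give neither its version nor the return to a linear scale. Log2 of the deposited intensities was taken with no offset. Of 45101 probe sets, 34958 had 1 gene symbol, 932 several and 9211 none in GEO's platform annotation, and symbols were updated through Entrez identifiers for 18033 of the 18194 genes. Each gene is its brightest single-symbol probe set. The control level is the highest of 27 Bacillus subtilis control probe sets on an array. RMA compresses low signals, which can understate fold changes of dim genes.

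limma 3.58.1 in R 4.3.3 (lmFit, eBayes) compared 2 arrays with 2, with Benjamini-Hochberg adjustment and a threshold of 0.05. The fit was tested on simulated data with errors independent between arrays, so that test does not cover deviations shared by replicate number. The sample titles call the 2 arrays of each group biological replicates but do not say that they came from separate embryos. The p-values therefore measure the spread between these samples, with variances that limma moderates over all genes. Alternatives covered a replicate block, each array left out, an offset, quantile normalization, median centring, dim genes, the choice and type of probe set, and the variance prior.

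The members and all gene lists were chosen with earlier results of these data known. All measured members are named. Array values are given for Mcm2 to Mcm7, Pcna, the ribonucleotide reductase genes and the iron-containing members, and for the 4 genes of each role with the largest absolute t. Of each pathway list and of the mitotic genes, the 4 genes with the lowest p are named. Marker lists are given mainly as sums, and the single markers named were not chosen by p.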

Additional observations from a re-analysis of the deposited data

How the results depend on the processing

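No member passed the test under any of the settings tried, and the lowest adjusted p of a member among them was 0.179 (limma), for Rrm2 by another choice of probe set. Over all genes, 2 were called with the replicate block, 2 with median centring, 2 with a trended robust prior and 1 when probe sets of a gene were averaged. The replicate numbers are shared between the groups but the labels do not say that they pair samples. The numbers' deviations from the group means correlated at 0.51 across genes, and under the replicate block 0 members were called, while 10 members and 2691 genes had an unadjusted p under 0.05. Under median centring 1 member was lower without overlap, and 23.6% of all genes were higher and 12.0% lower without overlap. With averaged probe sets the median was 0.061 for mitotic and 0.053 for other pathway genes. When 1 array was left out, medians ran from 0.12 to 0.28 for members, 0.025 to 0.33 for mitotic and 0.0047 to 0.19 for other pathway genes, 21 to 32 members were higher and 3 to 14 lower without overlap, where 36.4% to 40.0% of all genes were higher and 26.8% to 31.6% lower, and 0 genes were called. Leaving out wildtype replicate 2 gave the 14, and the 3 arrays then left assume that a lone array varies like the other group.

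Directions turned as follows, and the cause was not tested. Mcm4 was -7.8e-07 with an offset of 16 and -0.0044 under quantile normalization, where Orc2 was -0.028. With averaged probe sets Mcm4 was -0.029, Mcm6 0.098, Pold3 -0.11 and Rrm2 0.59. Without probe sets of the types shared between transcripts, 43 members were measured, and Mcm2 was 0.055, Mcm3 -0.14, Mcm4 -0.058, Rrm2 1.35 and Dut -0.0072. Single probe sets, an alternative chosen after seeing the data, gave Dna2 -0.041, Dut -0.0072, Mcm2 0.055, Mcm3 -0.14 and -0.11, Mcm4 -0.058, Orc4 -0.15, Pold3 -0.13 and -0.24, Rpa2 -0.059, Rrm2 1.35 and 0.54, and Tyms -0.17. Leaving out 1 array turned 23 members, with these ranges of the log2 difference: Cdt1 -0.014 to 0.73, Dna2 -0.28 to 0.54, Dut -0.35 to 0.49, Fen1 -0.17 to 0.20, Gins3 -0.00031 to 0.50, Mcm2 -0.41 to 0.032, Mcm3 -0.21 to 0.38, Mcm4 -0.020 to 0.020, Mcm5 -0.047 to 0.62, Mcm6 -0.61 to 0.38, Mcm7 -0.084 to 0.48, Orc2 -0.19 to 0.19, Orc3 -0.19 to 0.38, Orc5 -0.17 to 0.30, Orc6 -0.15 to 0.28, Pola2 -0.48 to 0.56, Pold3 -0.048 to 0.13, Rfc1 -0.060 to 0.18, Rfc2 -0.16 to 0.63, Rpa2 -0.35 to 0.64, Rpa3 -0.035 to 0.12, Rrm1 -0.0056 to 0.72, Tk1 -0.015 to 0.62. The other 24 kept their direction. All members lay above the control level, though compression of low signals can still understate dim members such as Orc1, at 21.3 to 39.6 over the 4 arrays. The number of arrays limits the precision.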

Other observations

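Besides Rrm2, 2 members had a dimmer probe set, chosen here after its values were seen, with a far higher difference than the brightest. The second probe set of Orc2 read 97.8 and 47.4 in cells labelled Tfrc-null, against 20.9 and 44.4 in wildtype cells, a log2 difference of 1.16 where the brightest gave 0.00. The third probe set of Mcm5 read 25.3 and 24.0 in cells labelled Tfrc-null, against 11.8 and 10.8 in wildtype cells, a log2 difference of 1.12 where the brightest gave 0.28. Neither passed the test over all 34958 single-symbol probe sets with limma, where 0 were called at an adjusted p of 0.05.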
